A study of Danio rerio with 48 samples.

Results

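Ionocytes are the skin and gill cells that move salt, acid and ammonia between a fish and the water, and 9 genes that build or run them were followed here in heads of larval zebrafish. They were taken by name from the deposited gene table, 9 of its 25377 genes, and all 9 passed the filter on low counts. Among them are 3 transcription factors (foxi3a, foxi3b and gcm2), 3 genes of acid and ammonia handling (rhcgb, ca2 and ca15a), a calcium channel and a sodium pump subunit (trpv6 and atp1b1b), and a sodium chloride cotransporter (slc12a10.2).

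The study exposed larvae of a mixed wild-type line to PFOS (perfluorooctane sulfonic acid), a fluorinated surfactant that persists in the environment, and sequenced polyA RNA from heads cut in front of the swim bladder. There were 8 groups, which crossed 4 concentrations (0, 0.88, 1.57 and 2.8 µM PFOS) with 2 ages (4 and 5 days post fertilisation, dpf), and each group had 6 pools of 15 heads. Every group, the controls included, carried 0.4% dimethyl sulfoxide (DMSO), and the controls had no PFOS. Whether pools came from different clutches is not in the labels. The p-values therefore set group differences against the spread between these pools, and whether the differences hold for other clutches is not known. Age and the day of collection cannot be told apart.

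In a freshwater larva, ionocytes arise in the skin from the same precursors as keratinocytes and are later concentrated on the gills. Cells rich in the proton pump secrete acid and ammonia and take up sodium, cells rich in the sodium pump take up calcium, and cells bearing the sodium chloride cotransporter take up chloride. Foxi3a and foxi3b are the forkhead factors that direct precursors to these fates, and gcm2 acts further along in the branch that makes the acid-secreting cells. Heads hold the gill region and head skin, so each value below is the summed RNA of all cells of a head. In such bulk samples, fewer cells of a type and less RNA per cell cannot be told apart.

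Libraries held 14475198 to 28926584 counts, with a median of 22580310. Levels are given as CPM, the counts relative to the library total after scaling by edgeR's TMM factors, and tests are edgeR's quasi-likelihood test with Benjamini-Hochberg adjustment over 20021 genes, called at an adjusted p under 0.05. In 3 libraries the median correlation with others of the same age was under 0.95, at 0.922 for pool A of 2.8 µM at 4 dpf, 0.941 for pool D of 1.57 µM at 5 dpf and 0.915 for pool H of 0.88 µM at 5 dpf. The lowest of the other 45 was 0.959. Pool H of 0.88 µM touched the members widely: of the 24 pools at 5 dpf it had the lowest trpv6 (0.912 CPM), ca2 (3.85), ca15a (0.507), atp1b1b (27.9) and foxi3b (6.18), and the highest foxi3a (25.3). Pool A of 2.8 µM had the lowest trpv6, slc12a10.2, ca2, atp1b1b and rhcgb of the 24 pools at 4 dpf. Values include all 48 libraries unless stated.

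The members differed by age and not measurably by PFOS. From 4 to 5 dpf, rhcgb rose 6.2-fold, slc12a10.2 and foxi3a rose 2.21-fold and 2.15-fold, and ca15a, foxi3b and atp1b1b rose 1.7-fold, 1.56-fold and 1.41-fold, as the mean of the age effects at the 4 concentrations. Trpv6, gcm2 and ca2 did not pass the test of age. With 6 of 9 members called higher and 0 lower, the background was 22.8% of all tested genes called higher and 20.5% called lower. In none of the 6 comparisons of PFOS with DMSO was a member called. Of all genes at most 0.0799% were called in any of them (1.57 µM at 5 dpf), so that absence is not particular to the members.

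**Figure D1:**
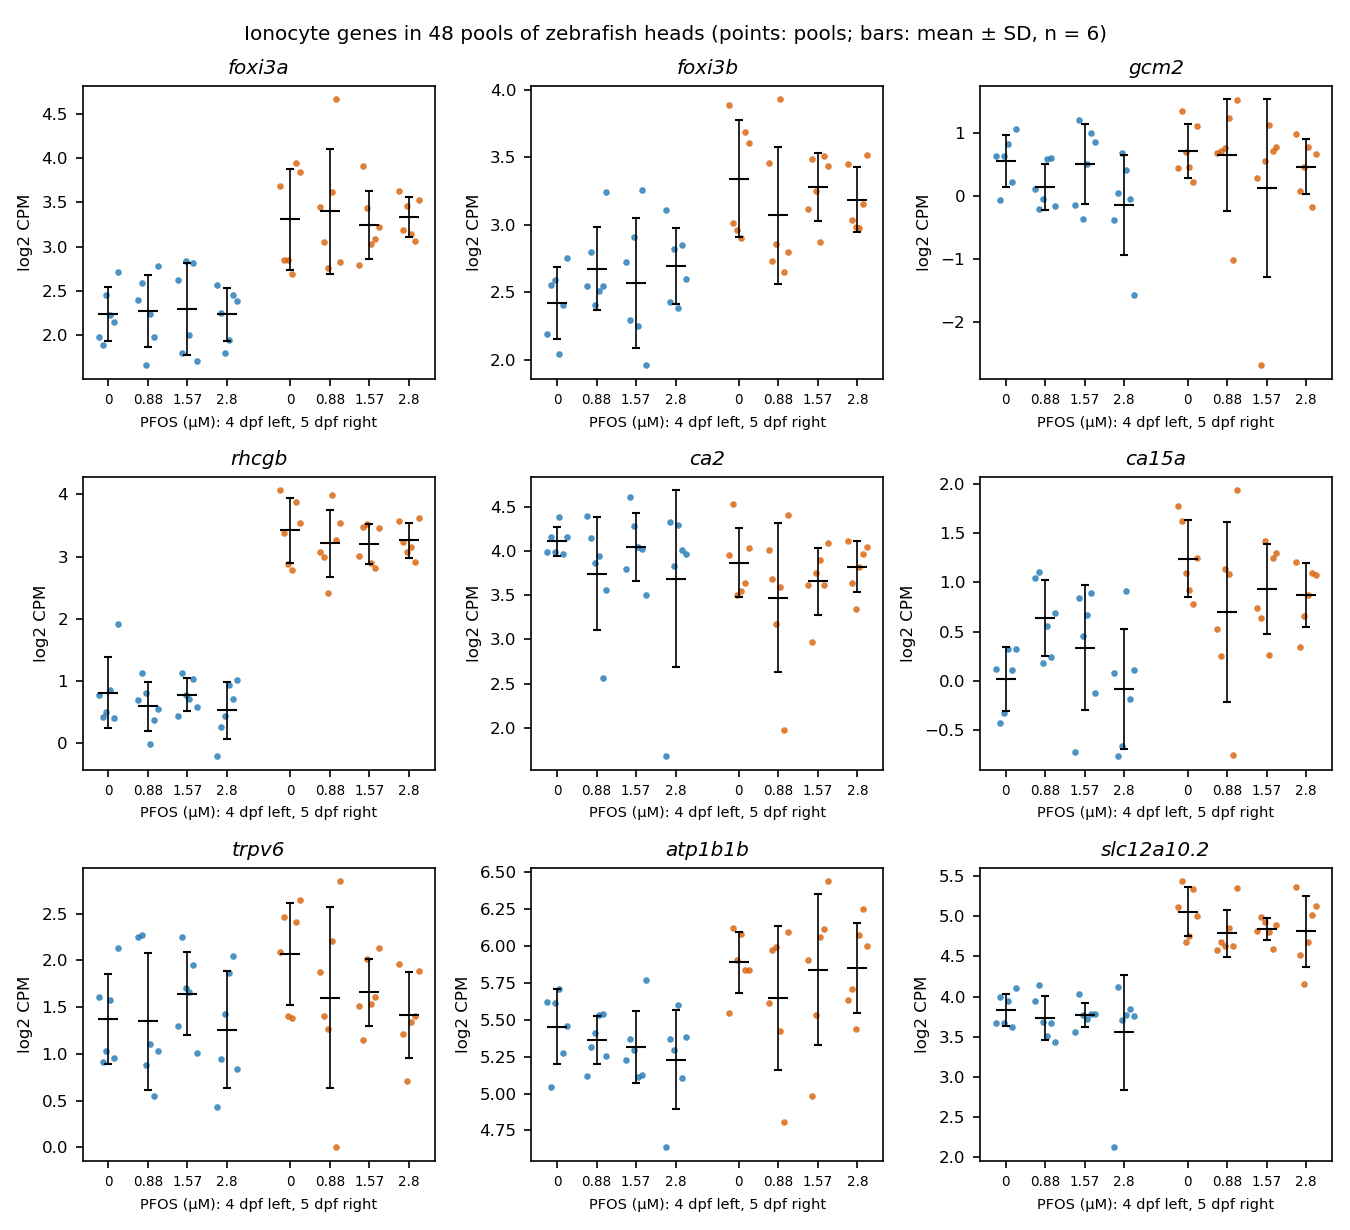
Log2 CPM of each member (vertical axis, 1 panel a gene) in every pool, by PFOS concentration in µM (0 is DMSO) with 4 dpf on the left and 5 dpf on the right. Points are pools and bars are the mean ± SD of 6 pools. The rhcgb and slc12a10.2 points at 5 dpf all lie above those at 4 dpf, whereas within an age the concentrations overlap for all 9 genes.

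Both forkhead factors rose with age. Foxi3a (GRCz11 chromosome 21, 30351256 to 30352952, plus strand), which marks ionocyte precursors, ranged from 3.06 to 7.07 CPM over the 24 pools at 4 dpf, with a median of 4.65. At 5 dpf it ranged from 6.35 to 25.3 CPM, with a median of 9.13. The ranges met only at their edges: 20 of 24 pools at 5 dpf exceeded the highest pool at 4 dpf, and 24 of 24 exceeded the 4 dpf median. The log2 fold change was 1.11 ± 0.13 (SE), with an adjusted p of 2.25e-09 by edgeR's quasi-likelihood test, and 4.84% of all tested genes rose further.

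Foxi3b (chromosome 14, 34514336 to 34516588, plus strand), its partner gene, moved less. It ranged from 3.8 to 9.47 CPM at 4 dpf (median 5.77) and from 6.18 to 15.1 CPM at 5 dpf (median 8.71). In 10 of 24 pools at 5 dpf it exceeded every pool at 4 dpf, so the ages overlapped, but 24 of 24 pools lay above the 4 dpf median. On the log2 scale the rise was 0.64 ± 0.11, with an adjusted p of 2.29e-06 by edgeR's quasi-likelihood test.

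Gcm2 (chromosome 24, 8827603 to 8831913, minus strand), which the acid-secreting lineage needs and which is also a pharyngeal and parathyroid gene, was sparse, at 1 to 95 counts a library. Its level ranged from 0.248 to 2.23 CPM at 4 dpf (median 1.16) and from 0.0666 to 2.79 CPM at 5 dpf (median 1.52). The ages overlapped widely. Its log2 fold change of 0.33 ± 0.18 did not pass (adjusted p = 0.144 by edgeR's quasi-likelihood test). It passed without the 3 libraries of low correlation, at 0.41 with an adjusted p of 0.0246. Pool D of 1.57 µM at 5 dpf, 1 of those 3, held the single gcm2 count.

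Among the acid and ammonia genes, rhcgb changed most. Rhcgb (chromosome 25, 8581541 to 8602438, minus strand) encodes the apical ammonia channel of the acid-secreting cells. In DMSO at 4 dpf it had a lowest level of 1.24, a median of 1.48 and a highest of 3.71 CPM. In DMSO at 5 dpf the same 3 values were 6.79, 10.9 and 16.6 CPM. Across all concentrations the 24 pools at 4 dpf lay between 0.777 and 3.71 CPM and the 24 at 5 dpf between 5.26 and 16.6 CPM, so the ages did not overlap. That separation upward was seen for 0.639% of all tested genes and for 2 members, rhcgb and slc12a10.2. The log2 fold change of rhcgb was 2.63 ± 0.13 (adjusted p = 5.71e-21, edgeR's quasi-likelihood test), the 8th smallest p of 20021 genes, and 1.02% of tested genes rose further.

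Ca15a (chromosome 12, 4320041 to 4331118, minus strand), a membrane carbonic anhydrase that supplies protons at the apical face of those cells, was also higher at 5 dpf. Its counts were low, at 5 to 127 a library. It ranged from 0.501 to 2.06 CPM at 4 dpf (median 1.07) and from 0.506 to 3.73 CPM at 5 dpf (median 2.02). The ages overlapped, with 23 of 24 pools at 5 dpf above the 4 dpf median and 9 above the highest 4 dpf pool. Its rise on the log2 scale was 0.76 ± 0.15, with an adjusted p of 7.03e-05 by edgeR's quasi-likelihood test.

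Ca2 (chromosome 24, 32650227 to 32665284, minus strand), the cytosolic carbonic anhydrase, did not share that rise. Its levels were 3.11 to 24.3 CPM at 4 dpf (median 15.9) and 3.85 to 23 CPM at 5 dpf (median 13.1). Only 7 of 24 pools at 5 dpf were above the 4 dpf median. Its log2 fold change was -0.21 ± 0.14, with an interval of -0.50 to 0.08 and an adjusted p of 0.238 by edgeR's quasi-likelihood test. Ca2 is also known as a gene of retinal and brain glia and of other tissues, so a head value is not of ionocytes alone.

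Of the genes taken here for the sodium-pump-rich, calcium-absorbing cells, the pump subunit was called and the channel was not. Atp1b1b (chromosome 1, 10720294 to 10739222, plus strand), a beta subunit of the sodium pump, ranged from 24.8 to 54.4 CPM at 4 dpf (median 40.4) and from 27.9 to 86.5 CPM at 5 dpf (median 59.9). In 22 of 24 pools at 5 dpf it was above the 4 dpf median, and in 15 above every 4 dpf pool. That was a rise of 0.49 ± 0.09 on the log2 scale, with an adjusted p of 2.49e-05 by edgeR's quasi-likelihood test. Between pools of a group, atp1b1b varied most like map1ab, a neuronal microtubule gene (r = 0.90). Which cells of a head its value came from was not tested, so it is not a value of ionocytes alone.

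Trpv6 (chromosome 16, 12294284 to 12319823, minus strand), the epithelial calcium channel, ranged from 1.26 to 4.74 CPM at 4 dpf (median 2.49) and from 0.912 to 7.11 CPM at 5 dpf (median 2.89). Here 18 of 24 pools at 5 dpf were above the 4 dpf median and 4 above every 4 dpf pool. A log2 fold change of 0.29 ± 0.17 did not pass (adjusted p = 0.157 by edgeR's quasi-likelihood test), with an interval of -0.04 to 0.63. The difference in age effect between trpv6 and atp1b1b was not tested.

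Slc12a10.2 (chromosome 7, 4332430 to 4380449, plus strand), the cotransporter that names the chloride-absorbing cells, rose at every concentration. It had a lowest level of 12.2, a median of 14 and a highest of 17.1 CPM in DMSO at 4 dpf, and of 25.4, 33.2 and 43.1 CPM in DMSO at 5 dpf. Over all pools the 4 dpf levels ended at 17.6 CPM and the 5 dpf levels began at 17.7 CPM, so the ages were apart by a narrow margin. It rose by 1.14 ± 0.10 on the log2 scale, with an adjusted p of 2.01e-13 by edgeR's quasi-likelihood test, and 4.61% of tested genes rose further. The neighbouring copies slc12a10.3 and slc12a10.1 were not called by the same test, at 0.17 ± 0.18 (adjusted p = 0.478) and 0.24 ± 0.39 (adjusted p = 0.646). Counts of slc12a10.3 were whole in only 18.75% of libraries, so counts may be divided among these copies.

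For some members the count itself is uncertain. Deposited counts of slc12a10.2 were fractions in 46 of 48 libraries, and its span overlaps CR383683.1 on the other strand and si:dkey-28d5.12 and si:dkey-28d5.14 on its own. Those genes had median counts of 6.5, 0 and 0 a library, against 418.5 for slc12a10.2. Counts of ca2 were fractions in 31 libraries and of trpv6 in 12, and each overlaps a gene on the other strand. These are si:ch211-282b22.1 with a median of 12 counts against 331.5 for ca2, and si:dkey-26c10.5 with 16 against 65.5 for trpv6. With age, CR383683.1, si:ch211-282b22.1 and si:dkey-26c10.5 rose by 1.105, 0.84 and 0.40 on the log2 scale. Their adjusted p-values were 0.000871, 0.000563 and 0.0337 by edgeR's quasi-likelihood test. Whether counting used strand is not stated, so reads of such overlapping genes cannot be told apart. The part of such reads in the members' age effects was not tested. Counts of ca15a were fractions in 10 libraries, with no overlapping gene but with ca15b and ca15c beside it.

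The age difference was also examined at each concentration apart. In DMSO, 5 members were higher at 5 dpf (ca15a, foxi3a, foxi3b, rhcgb and slc12a10.2), against 9.34% of all genes called higher. At 0.88 µM there were 3 (foxi3a, rhcgb and slc12a10.2; 8.41% of genes). At 1.57 µM there were 5 (atp1b1b, foxi3a, foxi3b, rhcgb and slc12a10.2; 8.98%), and at 2.8 µM 4 (atp1b1b, foxi3a, rhcgb and slc12a10.2; 7.1%). No member was called lower at any concentration. Of all genes 4.84%, 4.34%, 6.19% and 5.27% were called lower, from DMSO to 2.8 µM, so that absence is not particular to the members. In DMSO the groups did not overlap for 4 members, all higher at 5 dpf (ca15a, foxi3b, rhcgb and slc12a10.2), against 5.15% of genes higher and 3.07% lower. Trpv6 and atp1b1b had unadjusted p-values of 0.035 and 0.025 there, making 7 members under 0.05 against 26.9% of genes, but did not pass after adjustment.

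Rhcgb, slc12a10.2 and foxi3a were thus called at all 4 concentrations. The rhcgb log2 fold changes were 2.61 in DMSO and 2.72, 2.47 and 2.73 with rising PFOS, those of slc12a10.2 were 1.24, 1.06, 1.07 and 1.19, and those of foxi3a were 1.15, 1.24, 0.93 and 1.11. These members kept a like age difference in the controls and under PFOS, with standard errors of 0.19 to 0.27. Ca15a had 1.29, 0.30, 0.56 and 0.91, trpv6 0.72, 0.37, -0.01 and 0.08, and foxi3b 0.96, 0.45, 0.67 and 0.50. For these 3 genes the DMSO value was the highest of the 4, but no member's age effect differed from that in DMSO by the test of the difference itself.

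Single pools decided some of these calls, by edgeR's quasi-likelihood test with 1 library left out. At 1.57 µM the foxi3b call was lost without pool B, D or H at 4 dpf or pool D or H at 5 dpf (log2 fold changes 0.57 to 0.62, adjusted p 0.0577 to 0.089). The atp1b1b call there was lost without pool A, B, C, D or E at 4 dpf or F, H or I at 5 dpf (0.44 to 0.55, adjusted p 0.0533 to 0.113), and the foxi3a call without pool D at 5 dpf (0.76, adjusted p 0.0626). The 1.57 µM count then fell from 5 to 3 without pool B or D at 4 dpf, or D or H at 5 dpf. At 2.8 µM the atp1b1b call was lost without pool A, E or H at 4 dpf or G, H or I at 5 dpf (0.50 to 0.59, adjusted p 0.0505 to 0.0751). Ca15a, at 0.91 with an adjusted p of 0.051, passed at 2.8 µM without pool G at 4 dpf (1.23, adjusted p 0.0101) or pool E at 5 dpf (0.97, adjusted p 0.046). At 0.88 µM the ca15a value of 0.30 became -0.06, and that of trpv6 went from 0.37 to 0.03, without pool I at 5 dpf, and the foxi3b value of 0.45 became 0.22 without pool G at 5 dpf. The means over the 4 concentrations kept their 6 calls whichever 1 of the 48 libraries was left out.

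**Figure D2:**
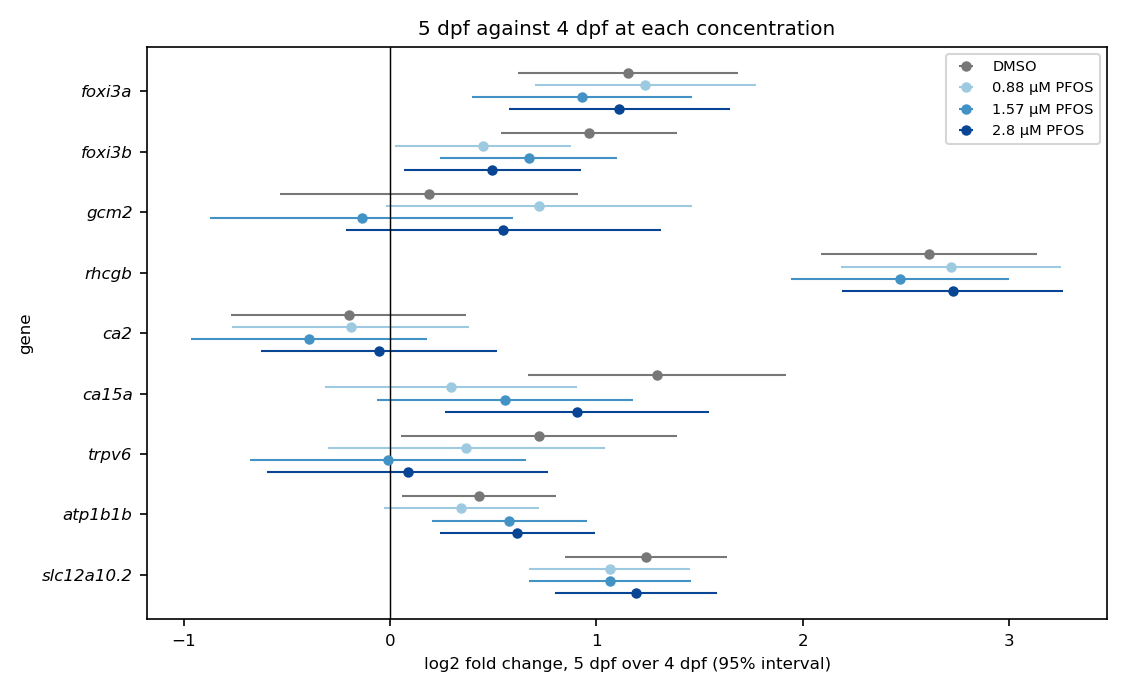
Log2 fold change of each member (rows) at 5 over 4 dpf, 1 point for each concentration, with 95% intervals from the shared fit. Rhcgb stands at 2.47 to 2.73, foxi3a and slc12a10.2 between 0.93 and 1.24, and the ca2 and gcm2 intervals all include 0.

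The other ionocyte genes were read from a list of 59, of which 52 were tested. With age, 29 of the 52 were called higher and 3 lower, with a median log2 fold change of 0.30. Over all genes 22.8% were called higher and 20.5% lower, with a median of 0.00. The ammonia channel genes rhcga and rhcgl1, relatives of rhcgb, rose by 3.48 ± 0.23 and 4.47 ± 0.31. Rhcga went from 0.715 to 14.2 CPM (median 2.97) at 4 dpf to 22.2 to 92.9 CPM (median 38.9) at 5 dpf, with no overlap. Rhcgl1 was listed at 0 in some 4 dpf pools, with a median of 0.054 CPM, and had a median of 1.69 CPM at 5 dpf. At 4 dpf it reached at most 0.25 CPM, so it passed the filter on low counts only through its 5 dpf pools. A rise was thus needed for rhcgl1 to be tested, and its call adds no support. Other genes of the 29 may share this limit. The adjusted p-values by edgeR's quasi-likelihood test were 8.48e-17 for rhcga and 2.81e-16 for rhcgl1.

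Of the other Rhesus family genes, rhag rose by 0.46 ± 0.10 (adjusted p = 0.000266, edgeR's quasi-likelihood test), and rhbg, at 0.26 ± 0.13, was not called (adjusted p = 0.111). Rhbg and rhag encode ammonia channels of other membranes and of red cells and gill vessels. Among the carbonic anhydrase genes, ca15c, next to ca15a, had a median of 0 CPM at 4 dpf and 0.377 CPM at 5 dpf, with 4 dpf pools at 0 to 0.0972 and 5 dpf pools at 0.122 to 0.841. Like rhcgl1, it passed the filter on low counts only through its 5 dpf pools. Ca4a at -0.32 ± 0.14 (adjusted p = 0.0522) and ca6 at 0.00 ± 0.07 (adjusted p = 0.965) were not called, like ca2.

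Of the chloride and anion genes of the list, some were called and others not. The chloride channel gene clcn2c, which lets chloride out of the cotransporter cells on the blood side, rose by 1.43 ± 0.14, from a median of 9.65 CPM to 25 CPM. The anion exchanger genes slc26a3.2 and slc26a6l rose by 3.32 ± 0.29 and 1.65 ± 0.21, and their mammalian relatives act in the intestine and kidney. Both were low at 4 dpf, with medians of 0.12 and 0.862 CPM, against 1.495 and 2.66 CPM at 5 dpf. The bicarbonate cotransporter gene slc4a4b rose by 0.40 ± 0.10. Cftr, the chloride channel gene of secretory epithelia, was not called (-0.21 ± 0.13, adjusted p = 0.204 by edgeR's quasi-likelihood test).

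The sodium pump alpha genes atp1a1a.2 to atp1a1a.5 rose by 0.92, 0.96, 0.94 and 0.80 (adjusted p from 9.39e-11 to 2.65e-08), and atp1a1a.1 by 0.18 ± 0.07 (adjusted p = 0.0474). The 5 lie side by side on chromosome 1 and are near copies, so counts may be divided among them. The other beta gene, atp1b1a, rose by 0.33 ± 0.08, and 5 of the 6 kcnj1a potassium channel genes rose by 0.60 to 1.94, also a cluster of copies. The sodium proton exchanger genes slc9a3.1 and slc9a3.2 rose by 1.76 ± 0.25 and 0.69 ± 0.28. Of the tested subunit genes of the proton pump, atp6v1ab rose by 0.29 ± 0.08, and atp6v1aa, atp6v1ba, atp6v0a1a, atp6v0a1b and atp6v0ca, at -0.17 to 0.23, were not called.

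The 3 genes called lower were regulators of ectoderm. Tfap2c fell by 0.80 ± 0.07, from 31.8 to 79.6 CPM at 4 dpf (median 55.4) to 22.6 to 42 CPM at 5 dpf (median 32.3), and tfap2a and foxi1 fell by 0.41 ± 0.07 and 0.42 ± 0.14. Tfap2c and tfap2a act in early ectoderm and neural crest, and foxi1 in the ear and jaw. Foxi2 was not called (0.02 ± 0.13, adjusted p = 0.919 by edgeR's quasi-likelihood test). Foxi1 therefore moved opposite to foxi3a and foxi3b. In calcium handling, atp2b2 rose by 0.30 ± 0.07, and atp2b1a (-0.02 ± 0.07) and slc8a1b (0.13 ± 0.10), genes of calcium exit pumps and exchangers, were not called, like trpv6. The deposited span of atp2b2 is very wide, so which reads its counts hold is uncertain. The phosphate transporter gene slc20a1a rose by 1.73 ± 0.15. It and trpm7 are in the kidney marker list below as well.

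**Figure D3:**
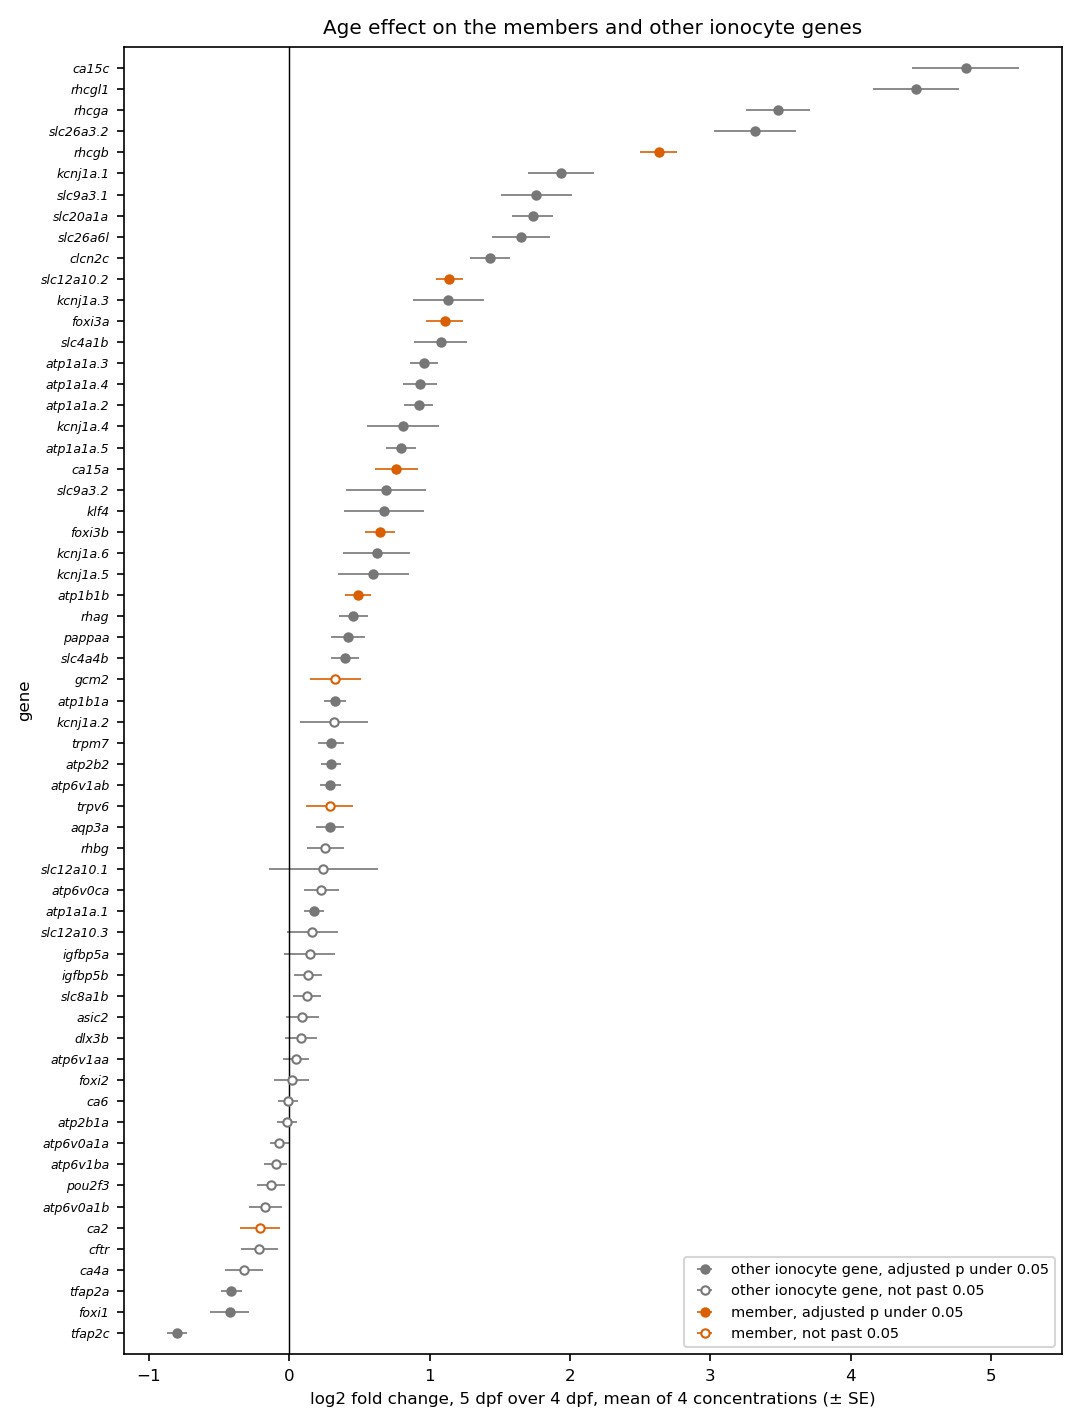
Log2 fold change (± SE) at 5 over 4 dpf, mean of the 4 concentrations, for the 9 members (orange) and the 52 tested genes of the ionocyte list (grey). Filled points passed an adjusted p of 0.05. Rhcgl1, rhcga, slc26a3.2 and rhcgb are among the highest, whereas the ammonia channel gene rhbg and the chloride channel gene cftr were not called. Tfap2c, foxi1 and tfap2a are at the bottom.

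Hormones that set ionocyte number and calcium uptake were read from a list of 26, with 22 tested. With age 10 were called higher and 2 lower, with a median of 0.29, against 22.8% of all genes higher, 20.5% lower and a median of 0.00. Of the vitamin D genes, cyp24a1, which breaks vitamin D down, rose by 2.37 ± 0.19, from a median of 4.42 to 22.3 CPM. Cyp27b1, which activates it, rose by 1.39 ± 0.22, and the receptor genes vdrb and vdra by 0.71 ± 0.12 and 0.35 ± 0.11. The phosphate hormone gene fgf23 rose by 1.89 ± 0.22, and crhb, the stress-axis releasing hormone, by 1.01 ± 0.16. Levels of fgf23 were low, with a median of 0.292 CPM at 4 dpf and 1.16 CPM at 5 dpf. Nr3c1, the cortisol receptor gene, and stc2a, of the stanniocalcin family, fell by 0.24 ± 0.08 and 0.29 ± 0.11. Stc1, the hormone gene that restrains calcium uptake, was low and not called (0.06 ± 0.31, adjusted p = 0.892 by edgeR's quasi-likelihood test), as was prl, prolactin (0.54 ± 0.27, adjusted p = 0.0973).

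Markers of other cell types were also called with age, where 22.8% of all tested genes were called higher and 20.5% lower. In the exocrine pancreas list 14 of 14 tested genes were called higher at 5 dpf, with a summed level of 1.88 to 45.7 CPM at 4 dpf and 3.42 to 6410 CPM at 5 dpf. The median sum of these 14 genes at 4 dpf was 4.16 CPM. Some of them may therefore have passed the filter on low counts only through 5 dpf pools. Enterocyte markers were called higher for 5 of 5 tested (16.6 to 45.9 against 29.6 to 188 CPM), muscle for 7 of 9 (6615 to 35160 against 7540 to 49240 CPM) and kidney for 6 of 9 (241 to 386 against 314 to 555 CPM). Keratinocyte markers, of the skin in which ionocytes lie, were called higher for 7 of 18 and lower for 1, with sums of 8770 to 20790 and 9026 to 20200 CPM. Of the neuron markers 0 of 10 were called higher and 3 lower, of photoreceptors 2 of 9 each way, of erythrocytes 0 of 4 higher and 2 lower, and of mucous cells 1 of 5 higher. The part of these lists in the age effect on the members was not tested.

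PFOS against DMSO asked whether exposure moved the ionocyte genes. At 4 dpf 0 of 9 members were called at 0.88, 1.57 or 2.8 µM, where 0% of all genes were called in each comparison. At an unadjusted p under 0.05 the members counted 1, 0 and 0, against 1.96%, 1.95% and 6% of all genes. DESeq2 and limma-trend called 0 members as well in each. The members' log2 fold changes had medians of -0.09, 0.03 and -0.17 with rising concentration, and 5, 4 and 8 of 9 were below 0, against 48.9%, 47.2% and 46.3% of all genes. The 3 comparisons share the same 6 DMSO pools. All 9 members overlapped between PFOS and DMSO in each. Groups did not overlap, with PFOS higher, for 0.025% of genes at 0.88 µM, 0.04% at 1.57 µM and 0.045% at 2.8 µM. With PFOS lower the shares were 0.035%, 0.02% and 0.0549%.

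The ca15a value at 0.88 µM and 4 dpf was the highest of them. Its levels were 0.655, 0.997 and 1.17 CPM (lowest, median and highest) in DMSO, 1.05, 1.45 and 2.06 at 0.88 µM, 0.52, 1.39 and 1.76 at 1.57 µM, and 0.501, 0.882 and 1.8 at 2.8 µM. The groups overlapped throughout, and the value at 2.8 µM was near that of DMSO. The log2 fold change at 0.88 µM was 0.67 ± 0.31, with an unadjusted p of 0.0394 and an adjusted p of 1 by edgeR's quasi-likelihood test. Gcm2 at 2.8 µM had the lowest value, at -0.64 ± 0.38 (adjusted p = 0.748). Rhcgb values at 4 dpf rested on pool I of DMSO, and the log2 fold changes of -0.31, -0.13 and -0.33 became 0.03, 0.21 and 0.01 without it.

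At 5 dpf 0 of 9 members were called at any concentration. Of all genes 0% were called at 0.88 and 2.8 µM, and 0.0799% at 1.57 µM, all of them lower. At an unadjusted p under 0.05 the members counted 0, 0 and 1 with rising concentration, against 5.18%, 5.04% and 1.92% of all genes, and DESeq2 and limma-trend called 0 members. Medians of the members were -0.24, -0.24 and -0.21, and 7, 8 and 9 of 9 were below 0, against 50.4%, 49.7% and 50.7% of all genes. All 9 members overlapped between PFOS and DMSO here too. Groups did not overlap, with PFOS higher, for 0.015% of genes at 0.88 µM, 0.0699% at 1.57 µM and 0.03% at 2.8 µM, and with PFOS lower for 0.035%, 0.115% and 0.0799%. The members are correlated between pools, and all 3 comparisons use the same DMSO pools, so these counts are not 9 separate observations.

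Trpv6 had the lowest value at 1.57 and 2.8 µM. Its lowest, median and highest levels at 5 dpf were 2.53, 4.71 and 6.15 CPM in DMSO and 0.912, 3.08 and 7.11 at 0.88 µM. They were 2.13, 2.89 and 4.29 at 1.57 µM and 1.54, 2.5 and 3.79 at 2.8 µM. Medians fell in order of concentration while all groups overlapped. The log2 fold changes were -0.28 ± 0.33, -0.46 ± 0.33 and -0.69 ± 0.33, the last with an interval of -1.36 to -0.02, an unadjusted p of 0.0434 and an adjusted p of 0.992 by edgeR's quasi-likelihood test. With 1 library left out, the trpv6 value at 0.88 µM ranged from -0.62, without pool I at 5 dpf, to -0.12. At 4 dpf the trpv6 values were 0.07, 0.27 and -0.05, so medians there were in no such order.

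Of the other members at 5 dpf, ca15a had -0.33, -0.31 and -0.40 with standard errors of 0.30, and slc12a10.2 had -0.27, -0.24 and -0.21 with standard errors of 0.19. Rhcgb had -0.20, -0.27 and -0.21 with standard errors of 0.24. Foxi3a, at 0.15, -0.11 and -0.05, and atp1b1b, at -0.19, 0.01 and -0.02, were nearest 0. With 1 library left out, the foxi3a value at 0.88 µM ranged from -0.22, without pool H at 5 dpf, to 0.26. That of foxi3b, -0.24 with all libraries, ranged from -0.48, without pool G, to -0.12. The ca15a value there, -0.33 with all libraries, ranged from -0.69, without pool I, to -0.19.

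**Figure D4:**
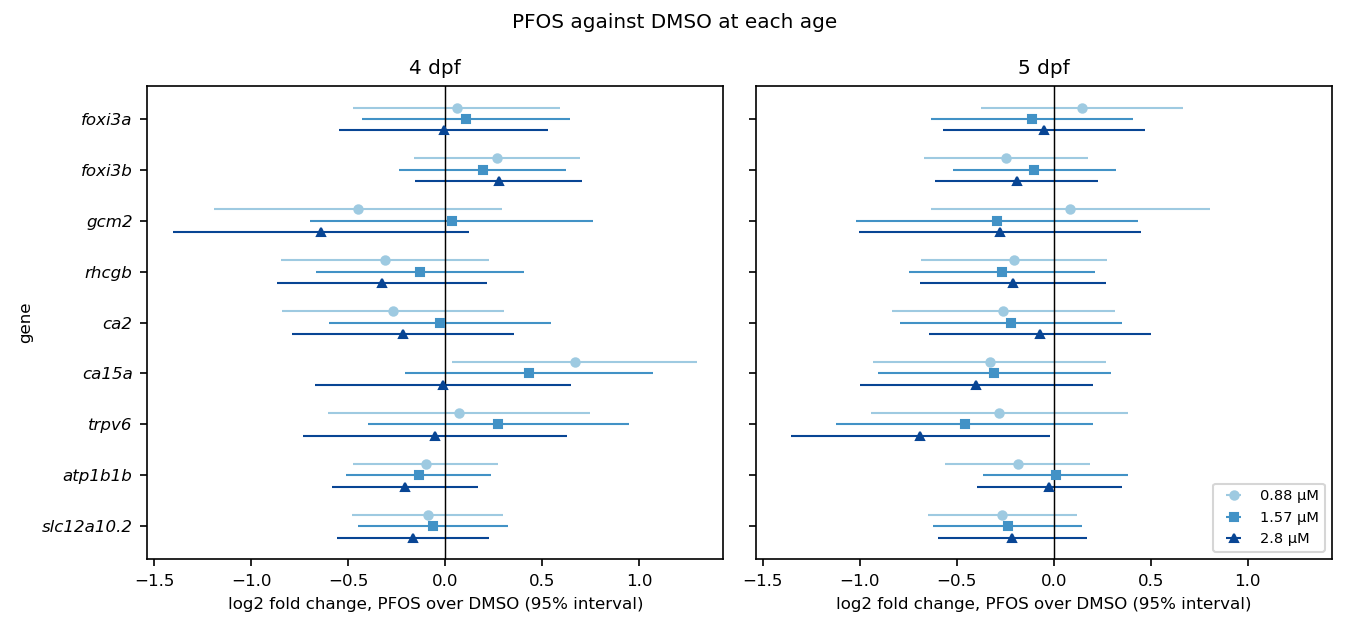
Log2 fold change of each member (rows) for 0.88, 1.57 and 2.8 µM PFOS over DMSO at 4 dpf (left) and 5 dpf (right), with 95% intervals from the shared fit. Intervals include 0 except ca15a at 0.88 µM and 4 dpf and trpv6 at 2.8 µM and 5 dpf, and neither of these passed the adjusted threshold.

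The 95% intervals give the range of change the data allow. The bound farthest from 0 among the 9 members was -1.40 on the log2 scale at 4 dpf (gcm2 at 2.8 µM) and -1.36 at 5 dpf (trpv6 at 2.8 µM). For atp1b1b and slc12a10.2, the deepest counted members, no PFOS interval reached beyond -0.65 or 0.38. The spread within groups was highest for gcm2 (SD 0.747 on the log2 scale), trpv6 (0.607) and ca2 (0.578) and lowest for atp1b1b (0.334), with a median of 0.437 over all tested genes.

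A linear trend with concentration called 0 members at either age, and 0% of all genes. The trpv6 trend at 5 dpf was -0.24 ± 0.12 per µM, with an unadjusted p of 0.04 and an adjusted p of 1 by edgeR's quasi-likelihood test. At 4 dpf the trpv6 trend was -0.01 ± 0.12. Trends of the 9 members ran from -0.18 to 0.08 per µM at 4 dpf and from -0.24 to 0.01 at 5 dpf. Testing whether the PFOS effect differed with age also called 0 members at 0.88, 1.57 and 2.8 µM, with 0% of all genes called in each. Ca15a at 0.88 µM differed most between ages, by -0.998 ± 0.43 (unadjusted p = 0.0258, adjusted p = 1 by edgeR's quasi-likelihood test). For trpv6 the differences were -0.35, -0.73 and -0.64 with standard errors of 0.47. Over the 9 members they ran from -0.998 to 0.54 at 0.88 µM, -0.74 to 0.15 at 1.57 µM and -0.64 to 0.36 at 2.8 µM. No gene of the ionocyte list (52 tested) or of the hormone list (22 tested) was called in any PFOS comparison either, where at most 0.0799% of all genes were.

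Among marker lists of other cell types, 12 of 14 exocrine pancreas genes were called lower at 1.57 µM and 5 dpf, and 0 in the other PFOS comparisons. Their medians at 5 dpf were -3.13, -5.31 and -1.49 on the log2 scale at 0.88, 1.57 and 2.8 µM. The 16 genes called at 1.57 µM over the whole table were 0 by limma-trend. With 1 pool left out they were 1 without pool B of DMSO, 4 without pool C, F or I of 1.57 µM, 10 without pool D of 1.57 µM and 40 without pool E of DMSO. Keratinocyte medians there were 0.13, 0.07 and 0.02, and neuron medians 0.13, 0.22 and 0.16, with no gene of these lists called. At 4 dpf, keratinocyte medians were 0.24, 0.26 and 0.38 and muscle medians 0.32, 0.24 and 0.52, with 0 called. The part of these lists in the members' values was not tested.

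Many pairs of members varied together between pools of 1 group. Deviations of log2 CPM from the group mean were correlated over the 48 libraries, with 100000 permutations within groups and adjustment over 36 pairs. By Pearson's r 20 pairs passed, 17 positive and 3 negative, and by Spearman's rho 17 passed. Without the 3 libraries of low correlation 14 passed, of which 13 were among the 20 with the same sign. The smallest p these permutations can give is 1e-05. What share of pairs of other genes would pass was not computed, so the count of pairs is not shown to be particular to these genes. The gene most like each member outside the members had r = 0.76 or higher, up to 0.92. Each is the best of 12203 genes, so these values do not give that share.

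The pairs with the highest r were among the calcium channel, the cotransporter, the carbonic anhydrases and the ammonia channel. Trpv6 and ca2 had r = 0.75 and rho = 0.73 (permutation p = 1e-05, adjusted 0.00018), with r = 0.67 without the 2 pools farthest from the trpv6 median and 0.70 without the 3 libraries. Trpv6 and slc12a10.2 had r = 0.60 and rho = 0.65 (permutation p = 1e-05, adjusted 0.00018), and r = 0.60 and 0.68 in those 2 subsets. Trpv6 and ca15a had r = 0.68 and rho = 0.62 (permutation p = 3e-05, adjusted 0.000216), and 0.55 and 0.63. Trpv6 thus varied with genes taken here for other ionocyte types, but ca2 is not a gene of ionocytes alone. Whether ionocyte types varied together was not tested. Slc12a10.2 and ca15a did not pass with each other (r = 0.25, adjusted p = 0.18).

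Slc12a10.2 and ca2 had r = 0.71 and rho = 0.67 (permutation p = 2e-05, adjusted 0.000216), with 0.53 and 0.60 in the 2 subsets. Trpv6 and rhcgb had r = 0.59 and rho = 0.64 (permutation p = 0.00016, adjusted 0.000823), and 0.67 and 0.69. Slc12a10.2 and rhcgb had r = 0.57 and rho = 0.62 (permutation p = 5e-05, adjusted 0.0003), and 0.55 and 0.53. Rhcgb thus varied with trpv6 and slc12a10.2 within groups, as well as rising with age. The cells behind these relations were not tested.

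The forkhead genes varied with each other. Foxi3a and foxi3b had r = 0.58 and rho = 0.69 (permutation p = 0.00074, adjusted 0.00296), and r was 0.76 without the 2 pools farthest from the foxi3a median and 0.79 without the 3 libraries. Neither passed with trpv6, slc12a10.2, ca2 or ca15a. For trpv6 the adjusted p was 0.921 with foxi3a and 0.151 with foxi3b, and for slc12a10.2 it was 0.897 with both. Trpv6 and foxi3a depended on the libraries that stood apart, with r = -0.02 over 48 libraries, 0.30 without the 2 farthest pools and 0.37 without the 3 libraries (adjusted p = 0.0532, and 0.0467 by Spearman's rho). Both passed with rhcgb, at r = 0.40 (rho = 0.43, permutation p = 0.0139, adjusted 0.0335) for foxi3a and r = 0.38 (rho = 0.31, permutation p = 0.0175, adjusted 0.039) for foxi3b. Foxi3a and atp1b1b were opposed, with r = -0.63 and rho = -0.60 (permutation p = 3e-05, adjusted 0.000216), and -0.50 and -0.45 in the 2 subsets. Foxi3b and atp1b1b were opposed too, with r = -0.35 and rho = -0.45 (permutation p = 0.0267, adjusted 0.0481). That r was -0.32 without the 2 pools farthest from the foxi3b median and -0.48 without the 3 libraries. With a prior count of 0.5 its adjusted permutation p was 0.0502.

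Several pairs rested on the libraries that stood apart. Gcm2 and atp1b1b had r = 0.58 (rho = 0.45, permutation p = 0.00256, adjusted 0.00922) and 0.22 without the 3 libraries, and ca2 and atp1b1b went from 0.49 (rho = 0.28, permutation p = 0.00339, adjusted 0.0108) to 0.04. Gcm2 with trpv6, foxi3a, ca2 and ca15a, and ca2 with rhcgb, also lost their calls there (r of ca2 and rhcgb was 0.36 with and without them), with adjusted p-values of 0.0532, 0.372, 0.411, 0.364 and 0.0532. Slc12a10.2 and ca15a gained one, at r = 0.41 (adjusted p = 0.00986) against 0.25.

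**Figure D5:**
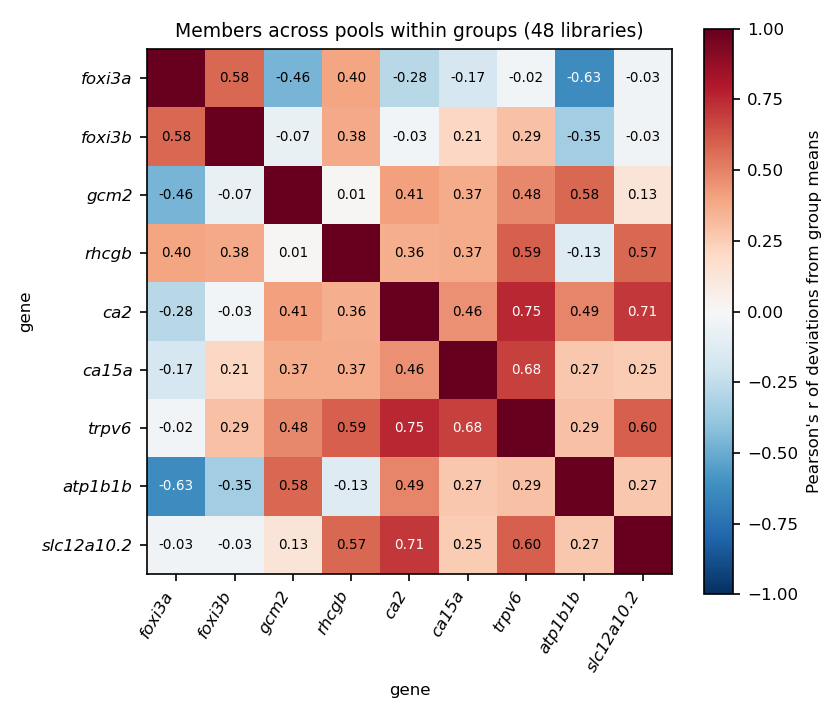
Pearson's r between members of deviations of log2 CPM from the group means, over 48 libraries, in colour and as printed values. Trpv6, ca2, slc12a10.2, ca15a and rhcgb have r above 0 with each other, and foxi3a and foxi3b form a pair at 0.58. Atp1b1b is opposed to foxi3a at -0.63 and to foxi3b at -0.35.

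The forkhead pair also varied with markers of several other tissues, and atp1b1b against some of them. Deviations of each member were set against deviations of the mean log2 CPM of 9 marker lists, 81 relations in all, a comparison chosen after seeing the data. Foxi3a and foxi3b had r = 0.74 and 0.76 with keratinocyte markers (rho = 0.77 and 0.74, permutation p = 1e-05 for each, adjusted 9e-05), with 0.74 and 0.83 without the 3 libraries and 0.74 and 0.74 without the 2 farthest pools. With muscle markers they had r = 0.79 and 0.69 (rho = 0.78 and 0.73, permutation p = 1e-05, adjusted 9e-05). Without the 3 libraries these were 0.74 and 0.85, and without the 2 farthest pools 0.77 and 0.80. Atp1b1b had r = -0.69 with keratinocyte markers (rho = -0.74, permutation p = 1e-05, adjusted 9e-05) and 0.41 with neuron markers (rho = 0.48, permutation p = 0.00383, adjusted 0.0155). Erythrocyte markers gave values as high, at r = 0.72 for foxi3a (rho = 0.74, permutation p = 2e-05, adjusted 0.000162), 0.70 for foxi3b (rho = 0.73, permutation p = 1e-05, adjusted 9e-05) and -0.72 for atp1b1b (rho = -0.71, permutation p = 1e-05, adjusted 9e-05). Without the 3 libraries these were 0.69, 0.81 and -0.60, and without the 2 farthest pools 0.71, 0.70 and -0.65. Photoreceptor markers passed as well, at r = 0.47, 0.50 and -0.53 (adjusted p = 0.00991, 0.00799 and 0.000515), and kidney markers for foxi3a and foxi3b, at 0.42 and 0.60 (adjusted p = 0.0489 and 0.000997). Atp1b1b was opposed to muscle markers as well (r = -0.72, adjusted permutation p = 9e-05). So were ca2 and gcm2 (-0.565 and -0.507, adjusted permutation p = 0.00417 and 0.0109), but neither passed without the 3 libraries (-0.28 each). Foxi3a and foxi3b were opposed to neuron markers (-0.37 and -0.45, adjusted permutation p = 0.0468 and 0.0121). Without the 3 libraries foxi3b still passed (-0.56, adjusted permutation p = 0.00156), but foxi3a did not (-0.40, adjusted permutation p = 0.0603). Not every relation that passed is given here. The relations were thus not limited to skin and muscle, and the share of each tissue in a pool was not measured otherwise.

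Of the transporter genes, rhcgb passed with keratinocyte markers (r = 0.49, rho = 0.43, permutation p = 0.00164, adjusted 0.0083). Trpv6 (r = 0.13), slc12a10.2 (0.09), ca15a (0.01) and ca2 (-0.15) did not pass. With neuron markers 3 of them were opposed: slc12a10.2 had r = -0.59 (rho = -0.57, permutation p = 1e-05, adjusted 9e-05), rhcgb -0.58 (rho = -0.53, permutation p = 0.00011, adjusted 0.000742) and trpv6 -0.43 (rho = -0.51, permutation p = 0.00568, adjusted 0.02). Without the 3 libraries these were -0.58, -0.53 and -0.55, and without the 2 farthest pools -0.53, -0.55 and -0.36. The part of neuronal RNA in these levels was not tested.

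Over 12203 genes with a mean log2 CPM of at least 1, the gene whose deviations were most like a member's over the 48 libraries was for none of the 9 members a gene of the ionocyte or hormone list. The search left out the members, and those lists hold only 59 and 26 genes, so that absence says little. For atp1b1b it was map1ab, a neuronal microtubule gene (r = 0.90), for foxi3b desma, the muscle desmin gene (0.80), and for rhcgb chrna1, the muscle acetylcholine receptor gene (0.78). For ca2 it was slc25a18, a mitochondrial glutamate carrier gene (0.92), for trpv6 tars (0.89) and for slc12a10.2 loxl2a (0.86). For foxi3a it was ndufv1, a mitochondrial respiratory gene (0.87), for ca15a coro2a (0.77) and for gcm2 sclt1 (0.76). For the mean of the 9 members the 5 most alike were padi2, idh1, degs2, sept10 and spint1a, at 0.88 to 0.90. Of the ionocyte list the nearest to that mean was rhbg, at r = 0.80 and rank 121, followed by atp1b1a, at 0.73 and rank 483. Other genes of that list varied against the mean, so the likeness was not shared by the whole list. The farthest were tfap2a, at r = -0.62 and rank 11055, trpm7, at -0.59 and rank 10814, and atp2b2, at -0.55 and rank 10502. These are descriptions over libraries that differ in depth and in marker levels of several tissues. The part of these differences in the likenesses was not tested.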

How the data were processed

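PolyA RNA of 48 pools of 15 heads was sequenced as single reads, per the labels' protocols, with libraries randomised into 3 sequencing pools of 16 whose membership is not stated. Annotation and counting options are not stated. STAR 2.5.3a, Partek 8.0.19.0428 and GRCz11 are named in the submitters' processing notes. The authors deposited expected counts per gene for 25377 genes, of which 81.2% of values are whole within 0.01, and a second table of log2 values after quantile normalization, per the file headers.

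Expected counts were rounded. The filterByExpr function by group kept 20021 genes, holding 99.93 to 99.97% of each library. With edgeR 4.0.16 (quasi-likelihood F test, TMM) in R 4.3.3, a single model of the 8 groups took in the 48 libraries, with Benjamini-Hochberg adjustment and a threshold of 0.05. A standard error is the size of the log2 fold change divided by the square root of its F. Log2 CPM used a prior count of 2. Intervals are 95% and follow the spread between pools, and reads had no molecular identifiers.

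The members and the gene lists were chosen with earlier results of these data known. All 9 members are given in every comparison. From the ionocyte and hormone lists the genes described are the called members with the smallest p, and others were added by family after their values were seen. Other settings were RLE, no filter, 1 CPM in 6 libraries, DESeq2 1.42.0, a block for the replicate letter, a fit of only the groups compared, limma-trend (limma 3.58.1) on the deposited log2 values, each library left out, and the 3 libraries of low correlation left out. No pair of libraries was identical (highest correlation 0.988). Levels are not compared between genes, since transcript lengths were not used here, and no sequences are shown.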

Additional observations from a re-analysis of the deposited data

Results flagged for a closer look

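Of 72 sets of 6 pools (9 members in 8 groups), 6 held a pool far from the other 5, where chance gives about 1 in 20. For slc12a10.2, pool A of 2.8 µM at 4 dpf was low, at a log2 CPM of 2.13 against 3.71 for the nearest pool, and pool I of 0.88 µM at 5 dpf was high, at 5.35 against 4.85. For ca2 the same pool A was low, at 1.68 against 3.83. For gcm2, pool D of 1.57 µM at 5 dpf was low, at -2.68 (1 count) against 0.29, and pool H of 0.88 µM at 5 dpf was low, at -1.02 against 0.68. These pools A, D and H are the 3 libraries of low correlation with the others. For rhcgb, pool I of DMSO at 4 dpf was high, at 1.93 against 0.86, and its level of 3.71 CPM was still below the lowest pool at 5 dpf (5.26 CPM).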

How the results depend on the processing

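The 6 members called with age over the 4 concentrations were 6 under every other setting run except without the 3 libraries of low correlation, where gcm2 made 7, and 6 to 6 with 1 library left out. No member was called for PFOS, trends or differences between ages under any setting, with 0 to 0 when 1 library was left out. With age at 1.57 µM the 5 members fell to 3 in a fit of only the groups compared and ranged from 3 to 5 with 1 library left out, because foxi3b, atp1b1b or foxi3a lost their calls, whereas at 2.8 µM the range was 3 to 5, in DMSO 5 to 5 and at 0.88 µM 3 to 3. Atp1b1b made the DMSO count 6 without the 3 libraries and in the fit of only the groups compared, and the 0.88 µM count 4 without the 3 libraries. Without them the 1.57 µM count was 4 (foxi3b lost) and the 2.8 µM count 5 (ca15a gained). By DESeq2 the 2.8 µM count was also 5 (ca15a gained), and limma-trend called ca15a but not atp1b1b there (4) and lost atp1b1b at 1.57 µM (4). A fit of only the groups compared is the same fit for the mean of the 4 age effects and was not run there. With the replicate letter as a block, 6 members were called for the mean age effect, 5 in DMSO, 3 at 0.88 µM, 4 at 1.57 µM (without atp1b1b, adjusted p = 0.121) and 4 at 2.8 µM, with 0 for PFOS. Same-lettered pools of the same age had a median r of 0.06 between their deviations (over 0.1 in 19 of 49 pairs). Pools of other letters had -0.003 (over 0.1 in 136 of 383 pairs). Of 48 libraries, 13 were most like one of their own letter, and the number expected without pairing was not computed. What the letters mean is not in the labels, so they were not taken as pairs, and whether pools were paired is not known. Of all genes, 16 were called at 1.57 µM against DMSO at 5 dpf, but 0 with the block, limma-trend or only the groups compared, and 20 with DESeq2. For age at 0.88 µM 2553 genes were called, but 782 with only the groups compared, and DESeq2 called 5 genes, against 0, for the difference between ages at 1.57 µM. No value that was called changed sign under any setting. Correlated pairs numbered 20, with 18 under RLE, 18 with a prior count of 0.5 and 14 without the 3 libraries. Counts of gcm2 (median 30 a library), ca15a (31.5) and trpv6 (65.5) limit what can be said of those genes.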
